A study of Gallus gallus with 4 samples.

Results

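The 9 genes described here encode aquaporins (AQP1, AQP2, AQP3, AQP4, AQP5 and AQP8) and the alpha, beta and gamma subunits of the epithelial sodium channel (SCNN1A, SCNN1B and SCNN1G). They were taken by gene symbol, with no measured value in the rule, and are all the chicken probe sets of the array that carry 1 of these symbols. They came to 15 of 37693 chicken probe sets. Each gene was represented by its brightest probe set, judged by the mean over the arrays. Of the 9 genes, 7 were above a filter of 11.1, the 40th percentile of mean signal, and so were 10505 named genes in all.

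Aquaporins are membrane pores that let water follow an osmotic gradient. The epithelial sodium channel lets sodium enter a cell from the fluid above it, and the sodium pump on the opposite cell face moves it on, so that water is drawn across the sheet. The chorio-allantoic membrane (CAM) of the chick is a vascular membrane lined by the chorionic epithelium on the shell side and by the allantoic epithelium on the side of the allantoic sac, where the embryo's kidney fluid collects. The allantoic epithelium is known for taking water and sodium back from that fluid.

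The VEGF-A group held 3 single chick (Gallus gallus) CAMs, VEGF CAM 1, 2 and 3, which had carried 3 µg of human recombinant VEGF-A, dried on a Thermanox plastic disc, for 24 h up to embryonic day 14, and each was hybridised to its own Affymetrix chicken array. The control group was 1 array of RNA pooled from 3 CAMs of the same age that the labels call normal. VEGF-A tissue was cut out where new capillaries were visible, so it was picked for its vessels, and of the control CAMs the labels and methods speak only as normal, while a figure legend of the study describes solvent and the plastic disc on them. The spread between control CAMs was not measured, every ratio shares the same control array, and with 3 arrays set against 1 the smallest p of a permutation test is 0.25.

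Of the epithelial markers of the labelled tissue, 14 of 19 listed were past the filter on mean signal. The dimmest of them, ESRP1 and OCLN, were below it on some arrays. The brightest was EPCAM, a surface protein of epithelia, at signals of 9059, 17058 and 13122 in VEGF CAM 1, 2 and 3 and 14941 in the control pool. Values are linear signals that the authors scaled to the same trimmed mean on every array. Over chicken probe sets the median signal was 15.3 to 17.2 in the VEGF-A CAMs and 19.1 in the control pool. The ratio of 3′ to 5′ signal of the actin control, which is raised where RNA is shortened, was 15.5, 19.7 and 22.9 in VEGF CAM 1, 2 and 3 and 24.2 in the control pool. Each sample mixed the cell types of the membrane, so that fewer cells of a type and less RNA per cell cannot be told apart.

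AQP1 was higher than the control pool by nearly the same factor in each VEGF-A CAM, while AQP8, AQP5 and AQP2 were high in VEGF CAM 1 above all. The 3 sodium channel subunits stayed within 2-fold of the control pool in every CAM on the probe set that stands for the gene. AQP3 and AQP4 were too dim to be followed. Of the 7 genes past the filter, 1 (AQP2) was more than 2-fold higher than the control pool in at least 2 of 3 comparisons, beside 5.37% of named genes, and 0 were more than 2-fold lower, beside 6.03%.

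**Figure D1:**
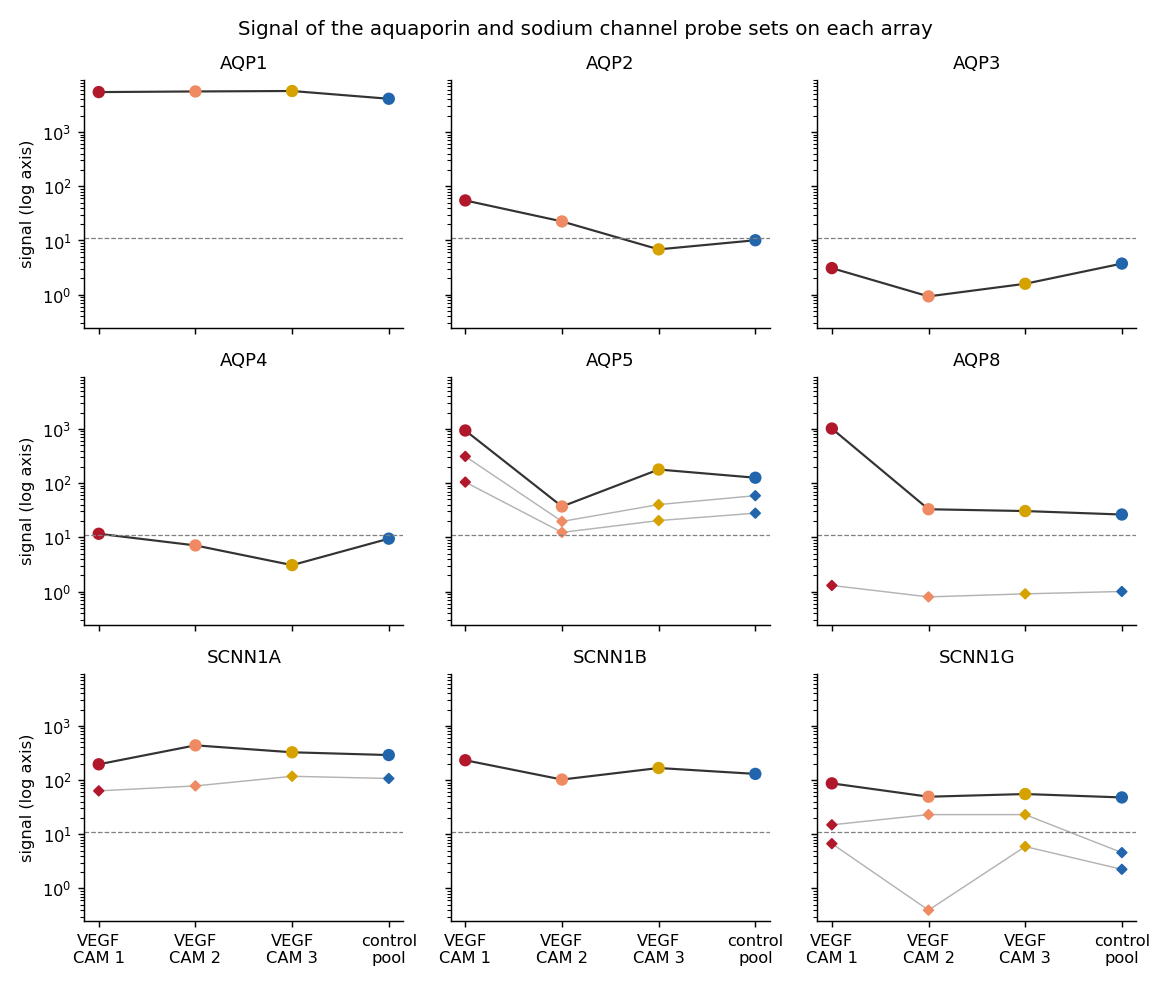
Signal (log axis, linear signal) of every probe set of the 9 genes on the arrays of VEGF CAM 1, 2 and 3 and of the control pool. Large circles with the dark line are the probe set that stands for the gene, small diamonds are its other probe sets, lines join the values of a probe set, and the dashed line is the filter at 11.1. AQP1 is level over the 3 VEGF-A CAMs, and AQP8 and AQP5 stand high in VEGF CAM 1.

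AQP1, the water channel of red blood cells, of many blood capillaries and of several water-moving epithelia, had signals of 5465, 5613 and 5723 in VEGF CAM 1, 2 and 3 and of 4116 in the control pool (on its only probe set). All VEGF-A CAMs lay above the control pool and close to each other, at 1.36 ± 0.031 times its signal (SD, n = 3). The log2 ratios were 0.41, 0.45 and 0.48, with a mean of 0.44 (SE 0.23, 95% confidence interval -0.10 to 0.99), and by limma the adjusted p was 0.854 (0.0947 before adjustment).

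The SD of these 3 log2 ratios was 0.033, where the median SD over all named genes was 0.333, and 97 of 10505 genes (0.923%) had a smaller one. Among the 1100 genes with a mean signal above 1000, 19 had a smaller SD and 102 a larger mean log2 ratio than AQP1. So close a match between the 3 CAMs was shared by few bright genes. The limma SE and interval of AQP1 draw mainly on the variance of other probe sets of like signal, so they do not measure this match. Arrays rescaled by their median put the AQP1 ratio at 0.70, since that scaling moved the median ratio of all genes from -0.07 to 0.19. The distance of AQP1 from the median of all genes is 0.51 under either scaling by construction, since this scaling shifts the mean ratio of every gene alike.

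The genes whose 3 log2 ratios lay nearest to those of AQP1 were AKIRIN2, a nuclear protein of immune gene control, EIF3L, a subunit of a translation initiation factor, and RIMS2, a protein of vesicle release. Their Euclidean distances over the 3 ratios were 0.057, 0.077 and 0.080. Such nearness was common, since 1220 genes lay within a distance of 0.5 of AQP1.

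Cell types in which AQP1 is known were represented as follows. Of 15 blood endothelial markers past the filter, the 2-fold rule called 12 higher and 0 lower, beside 5.37% and 6.03% of named genes. Their summed signal was 8040 to 13881 in the VEGF-A CAMs and 5969 in the control pool. CDH5, the cadherin of endothelial junctions, had 2372, 1533 and 2757 in VEGF CAM 1, 2 and 3 and 875 in the control pool. SOX17, a transcription factor of arterial endothelium, had 2658, 861 and 2795 in those CAMs and 1194 in the control pool, and VWF, the clotting protein stored in endothelium, had 1883, 2176 and 2353 in those CAMs and 1528 in the control pool.

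Of the VEGF-A CAMs, the endothelial sum was lowest in VEGF CAM 2. CDH5 and SOX17 were lowest there too, while VWF was lowest in VEGF CAM 1. Of 8 red blood cell markers, the 2-fold rule called 3 higher and 0 lower, beside 5.37% and 6.03% of named genes. Their sum was 25895 to 39861 in the VEGF-A CAMs and 28481 in the control pool. The alpha-type globin genes HBA1 and HBAD gave most of it. HBA1 had 12253, 20192 and 16421 in VEGF CAM 1, 2 and 3 and 16196 in the control pool, and HBAD had 9821, 16418 and 13464 in those CAMs and 10038 in the control pool. TFRC, the receptor that brings iron into red cell precursors, had 1706, 1779 and 1698 in those CAMs and 1151 in the control pool. The 3 called, named after their values were seen, were SLC4A1, RHAG and HBZ. SLC4A1 had 1197, 957 and 1067 in those CAMs and 530 in the control pool. RHAG had 235, 248 and 253 in those CAMs and 117 in the control pool. HBZ was dim, at 14.6, 23.3 and 10.7 in those CAMs and 3.78 in the control pool, and passed the filter only through VEGF CAM 1 and 2. TAL1 had a mean log2 ratio of -0.47, and the median over the 8 markers was 0.71. The part of these cell types in the AQP1 ratio was not tested.

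AQP2, the water channel that vasopressin moves to the surface of collecting duct cells in the mammalian kidney, had signals of 54.7, 22.5 and 6.85 in VEGF CAM 1, 2 and 3 and of 10.1 in the control pool (on its only probe set). The control pool and VEGF CAM 3 were thus below the filter, and the gene passed it through VEGF CAM 1 and 2 alone, so its call by the 2-fold rule rests on a dim control value. Its ratios to the control pool were 5.42, 2.23 and 0.678. The mean log2 ratio was 1.01 (SE 1.12, 95% confidence interval -1.61 to 3.63, limma adjusted p = 0.870), and without VEGF CAM 1 it was 0.30. The 2-fold call was lost without VEGF CAM 1 or without VEGF CAM 2. The rule fixed that loss in advance, since it still asks for 2 ratios beyond 2-fold and only those CAMs had them.

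AQP5, the water channel on the luminal face of lung and gland epithelium, lay on both sides of the control pool in different CAMs. Its main probe set had signals of 937, 37.1 and 178 in VEGF CAM 1, 2 and 3 and of 126 in the control pool. VEGF CAM 1 was the highest array and VEGF CAM 2 the lowest, 25.3-fold apart, and the control pool lay between them. The log2 ratios were 2.89, -1.76 and 0.50, with a mean of 0.54 (SE 1.45, 95% confidence interval -2.86 to 3.95, limma adjusted p = 0.939), which turned to -0.63 without VEGF CAM 1 and was 1.70 without VEGF CAM 2.

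Both other AQP5 probe sets, whose names share a stem and which may read overlapping sequence, gave the same order of VEGF CAM 1 highest and VEGF CAM 2 lowest. The brighter had 312, 19.7 and 40.3 in VEGF CAM 1, 2 and 3 and 58.7 in the control pool, and the dimmer had 105, 12.3 and 20.4 in those CAMs and 27.9 in the control pool. For these, VEGF CAM 3 lay below the control pool, where the main probe set had it above.

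AQP8, a channel of intestine, liver and pancreas in mammals that also passes ammonia and hydrogen peroxide, gave the widest gap. Its main probe set had signals of 1017, 33.0 and 30.6 in VEGF CAM 1, 2 and 3 and of 26.4 in the control pool. VEGF CAM 1 stood 30.8-fold above the next array, and VEGF CAM 2 and 3 were at 1.25 and 1.16 times the control pool. The mean log2 ratio of 1.94 (SE 1.79, 95% confidence interval -2.27 to 6.14, limma adjusted p = 0.868) rests on VEGF CAM 1, since it was 0.27 without that CAM. The other AQP8 probe set was below the filter with signals of 1.30, 0.797 and 0.908 in VEGF CAM 1, 2 and 3 and 1.00 in the control pool, and so did not show the gap of the main probe set.

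Over all 10505 named genes, the excess of VEGF CAM 1 over the highest of the other 3 arrays ranked 1 for AQP8, 5 for AQP5 (5.25-fold) and 29 for AQP2 (2.44-fold). The excess of the sodium channel genes was smaller, at 1.57-fold for SCNN1G and 1.39-fold for SCNN1B, and AQP1 and SCNN1A had none. On each of the other arrays the largest such excess was smaller than that of AQP8, at log2 3.38 and 2.34 on VEGF CAM 2 and 3 and 3.44 on the control array, where that of AQP8 was 4.95. A single gene with a mean signal above 100 stood more than 8-fold above the other arrays on VEGF CAM 1, which was AQP8, and 0 did so on each of the others. AQP8 met the limit of 100 only through VEGF CAM 1, as its signals on the other arrays were 26.4 to 33.0. Of the array measures, the median signal of 15.3 and the actin ratio of 15.5 were both lowest in VEGF CAM 1, and their part in these values was not tested.

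**Figure D2:**
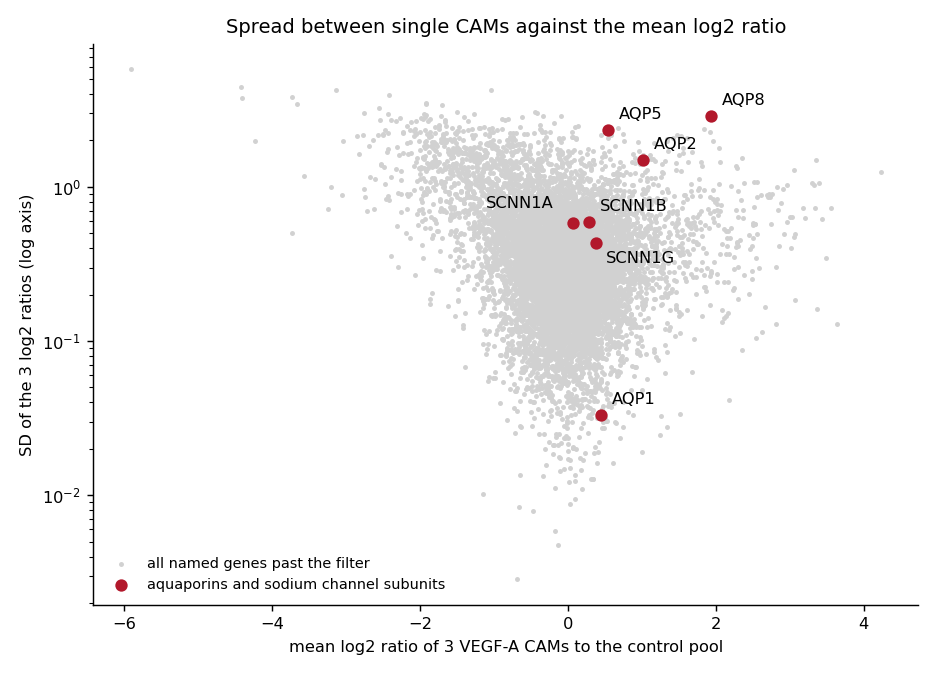
Mean log2 ratio of the 3 VEGF-A CAMs to the control pool against the SD of the 3 ratios (log axis) for 10505 named genes past the filter in grey and the 7 aquaporin and sodium channel genes among them in red. AQP1 lies at the low end of the spread with an SD of 0.033, and AQP8, with an SD of 2.89, AQP5, with 2.33, and AQP2 lie near its upper end.

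AQP3, a channel for water and glycerol on the basal face of epithelia, had signals of 3.09, 0.930 and 1.59 in VEGF CAM 1, 2 and 3 and of 3.74 in the control pool. AQP4, the main water channel of brain glia, had 11.6, 7.10 and 3.07 in those CAMs and 9.46 in the control pool. Both genes fell short of the filter on mean signal, AQP4 at 7.82 and AQP3 at 2.34, while the next gene, AQP2, passed it at 23.5, so neither was tested. Their ratios set dim values against each other, and a difference was not detectable at this signal. The only AQP3 probe set shares a name stem with those of AQP7, and which sequence it reads was not tested.

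SCNN1A encodes the alpha subunit, without which the sodium channel conducts little current. Its main probe set had signals of 195, 437 and 325 in VEGF CAM 1, 2 and 3 and of 289 in the control pool. VEGF CAM 1 was below the control pool and the other CAMs above it, with log2 ratios of -0.57, 0.59 and 0.17 and a mean of 0.07 (SE 0.47, 95% confidence interval -1.04 to 1.17, limma adjusted p = 0.978).

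The other SCNN1A probe set had signals of 63.2, 77.9 and 117 in VEGF CAM 1, 2 and 3 and of 107 in the control pool, with log2 ratios of -0.76, -0.46 and 0.14. The probe sets thus disagree on the side of VEGF CAM 2, and both have VEGF CAM 1 below the control pool. Their average gave a mean log2 ratio of -0.15, and the main probe set gave -0.20 without VEGF CAM 2.

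SCNN1B encodes the beta subunit, which carries a tail motif for removal of the channel from the membrane, as the gamma subunit does. It had signals of 232, 102 and 167 in VEGF CAM 1, 2 and 3 and of 129.9 in the control pool (on its only probe set). VEGF CAM 1 and 3 were above the control pool and VEGF CAM 2 below it, with a mean log2 ratio of 0.28 (SE 0.49, 95% confidence interval -0.86 to 1.42, limma adjusted p = 0.905). Leaving out VEGF CAM 1 gave a mean of 0.0071, and leaving out VEGF CAM 2 gave 0.60.

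SCNN1G encodes the gamma subunit. Its main probe set had signals of 86.9, 49.3 and 55.2 in VEGF CAM 1, 2 and 3 and of 47.8 in the control pool. All CAMs were above the control pool, VEGF CAM 2 by 0.04 on the log2 scale, and the mean log2 ratio was 0.37 (SE 0.44, 95% confidence interval -0.67 to 1.42, limma adjusted p = 0.874). It was 0.13 without VEGF CAM 1 and 0.88 with all SCNN1G probe sets averaged, dim ones included.

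A dimmer SCNN1G probe set gave a larger ratio. It had signals of 14.9, 23.0 and 23.0 in VEGF CAM 1, 2 and 3 and of 4.58 in the control pool, which is below the filter, so that it passed the filter through the VEGF-A CAMs alone. Its mean log2 ratio of 2.12 (limma adjusted p = 0.754) is set against that dim control value and supports no statement on SCNN1G. The remaining one was below the filter at 6.70, 0.398 and 5.93 in VEGF CAM 1, 2 and 3 and 2.25 in the control pool.

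The channel's subunits were not all on the same side of the control pool. In VEGF CAM 1, SCNN1A was below the control pool while SCNN1B and SCNN1G were above it at log2 ratios of 0.84 and 0.86, and in VEGF CAM 2, SCNN1A was above the control pool at 0.59 while SCNN1B was below it at -0.35. In VEGF CAM 3 all 3 lay between 0.17 and 0.36. By RefSeq gene order SCNN1B and SCNN1G are next to each other in the chicken genome, as are AQP2 and AQP5. The genes with log2 ratios nearest to those of SCNN1A were N4BP2L1, KIAA1328 and MRPL2, a protein of the mitochondrial ribosome, at distances of 0.077, 0.098 and 0.101 over the 3 ratios, and 310 genes lay within 0.5.

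**Figure D3:**
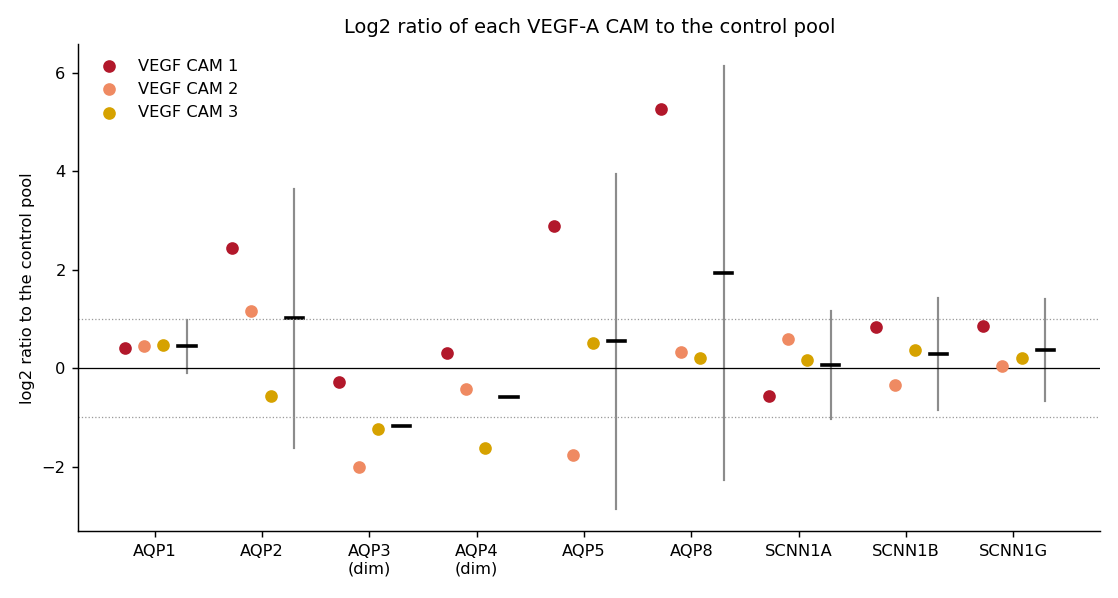
Log2 ratio of VEGF CAM 1, 2 and 3 to the control pool for the probe set that stands for each gene, with the mean as a black bar and its 95% confidence interval from limma as a grey line. Dotted lines mark 2-fold, and AQP3 and AQP4, below the filter, have no interval. Every interval includes 0, AQP1 has 3 ratios between 0.41 and 0.48, and the VEGF CAM 1 point of AQP8 stands at 5.27.

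Over the 7 genes past the filter, the median of the mean log2 ratios was 0.44, beside -0.07 over all named genes, and by CAM it was 0.86, 0.32 and 0.21 in VEGF CAM 1, 2 and 3, beside -0.05, -0.04 and -0.03. AQP1, AQP8 and SCNN1G were above the control pool in all 3 VEGF-A CAMs, beside 24.6% of named genes, and 0 were below it in all 3, beside 29.8%. By limma 0 of the 7 genes had an adjusted p under 0.05 and 0 an unadjusted p under 0.05, where 0% of the 22616 probe sets reached the first (lowest adjusted p 0.0986, and 2 probe sets past 0.05 without VEGF CAM 1) and 872 higher and 546 lower probe sets (6.27%) the unadjusted one. Of all named genes called by the 2-fold rule 47.1% were higher, against 59.1% after quantile normalization and 71.9% with arrays centred on the median, and the direction of each member's mean ratio was the same under these scalings. The error behind these p-values comes from differences among the VEGF-A CAMs, with 2 residual degrees of freedom, and they take the control array to vary like them.

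Genes known to work with these channels were called in both directions. Of 61 genes listed for their role, 34 were past the filter, of which the 2-fold rule called 3 higher (beside 5.37% of named genes), 3 lower (beside 6.03%) and 28 neither, with a median log2 ratio of -0.11. The control signals of the 6 that were called lay between 2.43 and 40.1, and 0 of the 34 had an unadjusted limma p under 0.05, beside 6.09% of named genes.

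The other aquaporins came to 4 past the filter, with 0 higher and 1 lower, beside 5.37% and 6.03% of named genes. The median over the 4 was -0.72. The lower one was AQP12A, an aquaporin of the pancreas in mammals, with 17.8, 36.8 and 18.9 in VEGF CAM 1, 2 and 3 and 40.1 in the control pool. VEGF CAM 2 was close to the control pool there, while the other CAMs were more than 2-fold below it.

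The sodium pump, which drives sodium uptake from the far cell face, had 4 genes past the filter, with a median of -0.15. Of these, 0 were called higher and 0 lower, beside 5.37% and 6.03% of named genes. FXYD2, the regulatory gamma subunit of the kidney pump, had 27.2, 21.7 and 36.1 in VEGF CAM 1, 2 and 3 and 50.1 in the control pool, and was below the control pool in every CAM. Another FXYD2 probe set past the filter was more than 2-fold below the control pool in VEGF CAM 2 and 3, with 14.8, 4.41 and 4.74 in VEGF CAM 1, 2 and 3 and 22.0 in the control pool. On the probe set that stands for the gene, all 4 pump genes had a mean log2 ratio below 0, between -0.86 and -0.10. Of all named genes, 45.0% had a mean above 0. Another ATP1B3 probe set past the filter was above the control pool in every CAM. It had 2480, 2614 and 2672 in VEGF CAM 1, 2 and 3 and 2231 in the control pool, while the main one had a mean log2 ratio of -0.12. Another FXYD6 probe set past the filter was below the control pool in every CAM. ATP1B1, a beta subunit, had 1783, 1636 and 1198 in those CAMs and 1713 in the control pool. Catalytic alpha subunits had no probe set that carries a listed symbol of theirs alone, at any signal, and were not analysed here.

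Of 16 genes listed with the control of the sodium channel, 1 was higher and 1 lower, beside 5.37% and 6.03% of named genes. The median over the 16 was -0.04. The higher one was SCNN1D, which is itself a subunit of the channel, the delta subunit that can replace alpha. It had 1.91, 32.3 and 12.8 in VEGF CAM 1, 2 and 3 and 3.04 in the control pool. The lower one was AVPR1B, a vasopressin receptor of the pituitary, with 26.1, 10.03 and 4.50 in those CAMs and 40.1 in the control pool. Both thus rest on dim signals, and SCNN1D passed the filter only through the CAMs where it was high.

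NR3C2 and SGK1, of the aldosterone pathway and named after their values were seen, gave brighter signals. They do not stand for the pathway as a whole. NR3C2, the mineralocorticoid receptor through which aldosterone raises channel number, had 517, 509 and 408 in VEGF CAM 1, 2 and 3 and 327 in the control pool. SGK1, the kinase it induces, had 5693, 6359 and 5911 in those CAMs and 5988 in the control pool on its main probe set. Another SGK1 probe set had 54.3, 960 and 986 in those CAMs and 414 in the control pool, so that the probe sets differ on VEGF CAM 1. Of the same list, SGK3 and the dimmer NR3C1, also named after their values were seen, were below the control pool in every CAM. SGK3 had 344, 553 and 346 in those CAMs and 652 in the control pool, and NR3C1 had 18.6, 14.8 and 18.2 and 33.0. Another SGK3 probe set past the filter was above the control pool in VEGF CAM 2, at 53.5 against 32.3.

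Of 10 other genes of sodium, chloride and potassium transport past the filter, 2 were higher and 1 lower, beside 5.37% and 6.03% of named genes. The median over the 10 was 0.17. SLC4A4, a sodium bicarbonate cotransporter, had 83.5, 37.6 and 5.65 in VEGF CAM 1, 2 and 3 and 15.5 in the control pool. Its other probe set past the filter was not called, with 20.9, 30.7 and 7.16 in those CAMs and 19.4 in the control pool. KCNE1, a small subunit of a potassium channel, had 18.6, 1.33 and 26.9 in those CAMs and 2.43 in the control pool, and passed the filter only through VEGF CAM 1 and 3. SLC9A2, a sodium and proton exchanger, was the lower one, with 20.2, 6.66 and 3.24 in those CAMs and 30.5 in the control pool. It was below the filter in VEGF CAM 2 and 3, on which its call rests.

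Markers of the epithelia that could hold these channels were lower in VEGF CAM 1 than in the other CAMs as a sum. Of 14 epithelial markers the 2-fold rule called 0 higher and 1 (KRT5, a basal keratin) lower, beside 5.37% and 6.03% of named genes. Their summed signal was 37103, 56541 and 45501 in VEGF CAM 1, 2 and 3 and 50633 in the control pool. KRT7, a simple-epithelium keratin, had 10122, 13407 and 12215 in those CAMs and 11440 in the control pool, and CLDN1, a tight junction protein, had 7827, 11372 and 8702 in those CAMs and 10173 in the control pool.

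The brightest markers weigh most in the epithelial sum, and not every marker was lowest in VEGF CAM 1. CLDN4, named after its values were seen, had 92.1, 60.8 and 81.6 in VEGF CAM 1, 2 and 3 and 74.9 in the control pool. The 3 markers of acid-secreting epithelial cells past the filter, ATP6V0A4, CA2 and FOXI1, summed to 248, 493 and 225 in VEGF CAM 1, 2 and 3 and 218 in the control pool, with 0 called. Their sum was highest in VEGF CAM 2. No listed marker past the filter had a signal of 0, and the part of these cells in the values of the channels was not tested.

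Fibroblast markers, all 8 past the filter, had 1 higher (COL1A1) and 1 lower (PDGFRA), beside 5.37% and 6.03% of named genes. Their sums were 34409 to 47842 in the VEGF-A CAMs and 25551 in the control pool. Their brightest members were the fibrillar collagens COL3A1, COL1A1 and COL1A2. PDGFRA was dim, at 7.53, 18.4 and 5.44 in VEGF CAM 1, 2 and 3 and 21.9 in the control pool. Its call rests on VEGF CAM 1 and 3, where it was below the filter. Sums were 1756 to 2466 in the VEGF-A CAMs and 1927 in the control pool for 4 smooth muscle markers, led by MYLK, TAGLN and MYH11, and 1249 to 2783 in the VEGF-A CAMs and 2350 in the control pool for 6 leukocyte markers, led by CD74, CSF1R and SPI1, with 0 called in either list.

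**Figure D4:**
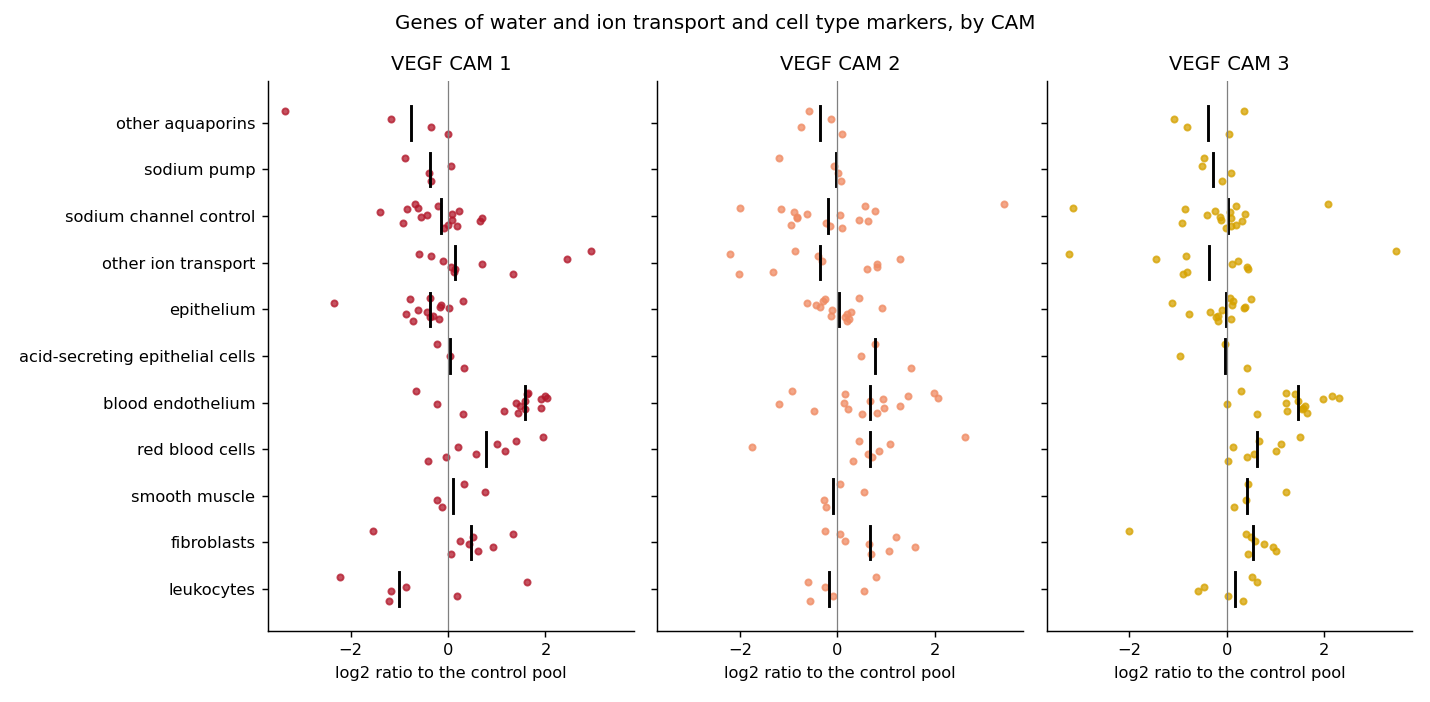
Log2 ratio to the control pool of each gene past the filter (points) and the median of its list (black bar), in VEGF CAM 1, 2 and 3 from left to right, for 4 lists of water and ion transport genes and 7 lists of cell type markers. The transport lists lie on both sides of 0, the endothelial medians are 1.58, 0.66 and 1.47, and the epithelial medians are -0.37, 0.03 and -0.02.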

How the data were processed

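RNA of chick chorio-allantoic membranes was measured on 4 Affymetrix chicken arrays, as 3 single VEGF-A CAMs and 1 control pool of 3 CAMs. The deposited intensity is a linear signal for each probe set, made by the authors, and the submitters' processing notes name GCOS 1.2. The study's detection calls were replaced here by a filter on signal. Of the value columns, 0 were left out.

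Each VEGF-A CAM was divided by the control pool, on the intensities as scaled by the authors, and the log2 was taken. Chicken probe sets past the 40th percentile of mean signal were tested with limma 3.58.1 in R 4.3.3, allowing the variance to follow the signal (5.23 prior degrees of freedom) and Benjamini-Hochberg adjustment over 22616 probe sets. The functions were tested on simulated data, and plots were made in Python 3.11.15 with matplotlib 3.10.9. The 2-fold rule, after the study's methods, asked that 2 or more of the 3 ratios lie beyond 2-fold. Gene symbols come from the platform table, which gives 1 symbol to 27166 chicken probe sets, several to 177 and none to 10350. All 9 symbols matched RefSeq, which was used for names and gene order only.

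The rule takes the 9 genes by symbol alone, but this family and the gene lists were chosen with earlier results of these data known. Named genes are the 9 genes, each called gene of a transport list or, in a list with none, the 2 of largest mean log2 ratio in either direction, the 3 nearest genes to AQP1 and SCNN1A, which have the highest mean signal of their families, and up to 3 markers of highest mean signal per cell type. Others are said to be chosen after their values were seen. The alternatives changed the scaling (quantile, or median of each array), set a floor at the 20th percentile or added 32, dropped the filter or moved it to the 60th percentile, left the trend out of limma, chose probe sets differently, or omitted a VEGF-A CAM. Precision is limited by the number of arrays.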

Additional observations from a re-analysis of the deposited data

How the results depend on the processing

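Of 108 mean log2 ratios of the 9 genes recomputed under 12 alternatives, 105 kept their direction and 3 turned, and of the 7 genes tested by limma none passed its threshold under any of them. Many of the 105 could not have turned. Dropping or moving the filter and leaving out the limma trend cannot change a mean ratio. Choosing by control signal picked the same probe sets for these genes, and averaging changes nothing where a gene has a single probe set. AQP5 turned to -0.63 without VEGF CAM 1, within a range of -0.63 to 1.70 when each VEGF-A CAM was left out. SCNN1A turned to -0.15 when its probe sets were averaged and to -0.20 without VEGF CAM 2, within a range of -0.20 to 0.38. AQP3, which was not tested, had -1.18 as deposited, -0.26 with the floor and -0.08 with the offset. The AQP1 ratio ranged from 0.43 to 0.70, with limma adjusted p-values of 0.525 to 0.964.

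The count of these genes more than 2-fold higher was 1 (AQP2), 0 with the offset or the filter at the 60th percentile, 2 (AQP2 and SCNN1G) with the mean of all probe sets, and 0 to 1 with a CAM left out (0 without VEGF CAM 1 or without VEGF CAM 2). The count of those more than 2-fold lower was 0, and 1 (AQP3) with no filter. With a CAM left out, the rule asked that both remaining ratios lie beyond 2-fold, which is stricter than 2 of 3. A call resting on 2 CAMs was thus lost whenever either was left out. Of the transport genes, 3 were higher and 3 lower, which became 0 and 0 with the offset, 6 and 8 with no filter, and 1 and 1 with the filter at the 60th percentile, while 1 was higher with the probe set of highest control signal. With a CAM left out, 1 to 2 were higher (1 without VEGF CAM 1 or VEGF CAM 3) and 0 to 2 lower (1 without VEGF CAM 2 and 0 without VEGF CAM 3). The shares of all named genes called under each setting were not worked out, so these counts cannot be set against them. The limma count of 0 probe sets became 2 without VEGF CAM 1, in HBA1 and HINTW, and was 0 without VEGF CAM 2 or VEGF CAM 3 (range 0 to 2). Neither is among the 9 genes. Without VEGF CAM 1 the log2 ratio was 2.40 for that HBA1 probe set and -9.24 for HINTW. The HBA1 probe set given above among the red blood cell markers is another one, with a mean log2 ratio of -0.02 over the 3 CAMs. The cause of these differences was not tested.

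No paired analysis was possible because the control is a single pool and shares no replicate number series with the VEGF-A CAMs. Dim signals limit AQP2, AQP3, AQP4 and the dimmer SCNN1G probe set, and the lone control array limits every ratio.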

Other observations

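The genes given here were chosen after their values were seen, and their values are descriptions. By excess of VEGF CAM 1 over the other 3 arrays, ranks 1 to 5 were AQP8, SLC14A2, GLRX3, ALDH1A1 and AQP5. Ranks 6 to 10 were BHMT2, MHCY4, OPN5L1, DMRT1 and NBEAL1. SLC14A2, a urea transporter of the kidney, had signals of 199, 0.589 and 19.2 in VEGF CAM 1, 2 and 3 and of 27.1 in the control pool. BHMT2, a methyltransferase known from liver and kidney, had 179, 10.1 and 29.6 in those CAMs and 36.1 in the control pool. GLRX3, a cytosolic iron and redox protein, had 2041, 199 and 255 in those CAMs and 302 in the control pool.

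SLC12A1, the sodium, potassium and chloride cotransporter of the kidney's thick ascending limb, ranked 25 of 10505 genes by the same excess, at 2.50-fold. Its signals were 987, 96.7 and 212 in VEGF CAM 1, 2 and 3 and 394 in the control pool, and VEGF CAM 1 was also the highest array on both of its other probe sets past the filter, with 169, 37.4 and 19.7 in those CAMs and 53.3 in the control pool on the brighter one. Like AQP5, it was thus above the control pool in VEGF CAM 1 and below it in VEGF CAM 2.

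Other genes stood low on VEGF CAM 1. AVD, the biotin-binding protein avidin of egg white, had signals of 131, 5126 and 4844 in VEGF CAM 1, 2 and 3 and of 1975 in the control pool, a gap of 15.1-fold to the next array. UPK3A, a membrane protein of urothelium, had 1555, 8038 and 7515 in those CAMs and 7284 in the control pool. TFF3, a secreted peptide of mucous epithelia, had 35.6, 747 and 340 in those CAMs and 147 in the control pool, and ANXA8L1, an annexin, had 1145, 4415 and 5281 in those CAMs and 5586 in the control pool. Of 5476 genes with a mean signal above 100, 18 stood more than 2-fold above the other arrays on VEGF CAM 1 and 53 more than 2-fold below them, while these counts were 26 and 30 on VEGF CAM 2, 6 and 13 on VEGF CAM 3 and 12 and 57 on the control pool.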
